A study of Mus musculus with 10 samples.

Results

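The cyclin-dependent kinase inhibitors of the Cip/Kip family (Cdkn1a, Cdkn1b and Cdkn1c) and of the Ink4 family (Cdkn2a, Cdkn2b, Cdkn2c and Cdkn2d) were examined in peak lists of H3K27me3 and Mtf2 from fetal liver erythroid cells. The 7 genes, of 22367 annotated protein-coding genes on the autosomes and sex chromosomes, were listed by family name after the peak calls were known. Their peaks were then collected by distance: within 5 kb of a transcription start site (TSS), inside the gene, and within 50 kb of it. In all, 27 of the 50907 peaks of the 6 lists lay in or within 50 kb of one of the genes, and 10 of them lay within 5 kb of a TSS. The genes were chosen because of the peak calls described here, so which genes carry a peak in which list is a description, and no test is attached to it.

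Cip/Kip proteins bind cyclin-dependent kinases paired with cyclins and hold back the cell cycle, whereas Ink4 proteins bind Cdk4 and Cdk6 alone and keep them from D-type cyclins. Maturing erythroblasts leave the cell cycle during terminal differentiation, and Cdkn1b and Cdkn2c are known to act in that step. PRC2 is the complex that trimethylates lysine 27 of histone H3, the Ink4a/Arf-Ink4b locus (Cdkn2a and Cdkn2b) is a classical Polycomb target in many cell types, and Mtf2 (Pcl2) is a PRC2 accessory protein that can bind unmethylated CpG-rich DNA.

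Cells came from the FL of e14.5 embryos of the C57Bl/6 background, either WT (Pcl2+/+) or Mtf2-null (Pcl2-/-), the latter a constitutive knockout derived from gene-targeted ES cells that passed through chimeras made with CD1 blastocysts. They were sorted into CD71+Ter119-/lo pro-erythroblasts and CD71+Ter119high erythroblasts, at 500000 cells per sample. H3K27me3 was immunoprecipitated in both genotypes and both fractions, and Mtf2 in WT cells of both fractions, which gave 6 ChIP libraries with a peak list and 4 IgG libraries used as background. With 1 library per condition there was no replicate spread, so no difference between genotypes or fractions below has a test. A gene without a peak is one whose signal did not pass the peak caller's cutoff at the depth of that library. The 6 ChIP libraries held between 15669899 and 67169672 unique tags, and the Mtf2-null H3K27me3 libraries were the deeper ones in both fractions. The Mtf2-null IgG libraries were deeper as well. They held 39667267 unique tags against 16898992 in WT for CD71+Ter119-/lo cells, and 20646036 against 12345800 for CD71+Ter119high cells. Every one of the 1407 peaks of the Mtf2-null CD71+Ter119-/lo list carried an estimated false discovery rate (FDR) of 100%. None of the erythroid genes Gata1, Klf1 and Tfrc had a peak of any list within 5 kb of a TSS, while of 4 B cell genes Pax5 and Ebf1 had H3K27me3 peaks in WT CD71+Ter119high cells, and of 4 hepatocyte genes Afp had an Mtf2 peak in CD71+Ter119-/lo cells. No T cell or myeloid gene of the lists (4 each) had one. Over all protein-coding genes, 11.5% had an H3K27me3 peak there in WT CD71+Ter119high cells and 8.44% an Mtf2 peak in CD71+Ter119-/lo cells. In the remaining lists the share ran from 1.27% to 3.28%. With so few genes per cell type, nothing about cell identity is read from these counts.

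The sequences under the peaks are shown first, because the peaks of highest score beside Cdkn1a and every Mtf2 peak close to a member TSS lay on tandem repeats. All are read from the reference assembly NCBIM37 (mm9) and are written 5′ to 3′ on the strand of the gene. The first pair comes from the long domain beyond the 3′ end of Cdkn1a. One stretch of 300 bases is centred on the H3K27me3 summit of WT CD71+Ter119-/lo cells (chr17:29241137-29241436, plus strand, intergenic). The other is centred on the domain's far end (chr17:29246047-29246346, plus strand, intergenic). Capitals mark the word AGTTGTAGAACT and its reverse complement AGTTCTACAACT, which occurred 11 times around the summit and 6 times in the stretch at the end.
Cdkn1a domain, summit: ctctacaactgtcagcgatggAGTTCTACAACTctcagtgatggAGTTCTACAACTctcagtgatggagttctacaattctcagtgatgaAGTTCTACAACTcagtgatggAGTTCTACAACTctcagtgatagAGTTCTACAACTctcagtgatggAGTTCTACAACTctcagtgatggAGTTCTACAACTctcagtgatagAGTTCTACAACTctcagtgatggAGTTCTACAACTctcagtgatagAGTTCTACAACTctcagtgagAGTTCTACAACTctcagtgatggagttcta
Cdkn1a domain, far end: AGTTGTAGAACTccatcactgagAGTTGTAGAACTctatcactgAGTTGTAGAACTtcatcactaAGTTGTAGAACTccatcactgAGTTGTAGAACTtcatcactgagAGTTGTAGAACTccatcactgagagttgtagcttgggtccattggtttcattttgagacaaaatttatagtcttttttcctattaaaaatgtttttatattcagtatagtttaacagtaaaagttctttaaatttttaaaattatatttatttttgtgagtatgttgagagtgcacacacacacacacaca
In the stretch at the end, the copies stop where the peak stops and ordinary sequence follows.

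The other two repeats lay under the Mtf2 summits of CD71+Ter119-/lo cells at Cdkn2a (chr4:88930936-88931235, minus strand, an intron of Cdkn2a) and Cdkn2d (chr9:21098130-21098429, minus strand, intergenic, upstream of the gene). Capitals mark the most frequent word of 12 bases, CTTCCTGGGATC (13 copies shown) at Cdkn2a and TGGCCACCTCAG (7 copies shown) at Cdkn2d.
Cdkn2a intron, Mtf2 summit: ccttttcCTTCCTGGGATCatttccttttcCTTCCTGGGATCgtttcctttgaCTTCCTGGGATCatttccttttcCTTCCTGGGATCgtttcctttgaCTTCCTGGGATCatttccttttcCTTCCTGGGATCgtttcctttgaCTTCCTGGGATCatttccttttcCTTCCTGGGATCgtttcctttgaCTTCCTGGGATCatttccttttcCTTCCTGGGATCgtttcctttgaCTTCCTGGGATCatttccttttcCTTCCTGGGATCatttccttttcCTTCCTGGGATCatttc
Cdkn2d upstream, Mtf2 summit: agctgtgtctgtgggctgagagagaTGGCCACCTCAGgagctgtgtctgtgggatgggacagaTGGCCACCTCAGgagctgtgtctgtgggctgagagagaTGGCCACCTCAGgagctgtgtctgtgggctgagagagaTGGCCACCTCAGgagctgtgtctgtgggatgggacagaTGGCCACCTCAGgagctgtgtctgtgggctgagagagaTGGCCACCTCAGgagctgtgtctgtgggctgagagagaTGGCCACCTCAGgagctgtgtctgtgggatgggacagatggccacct
The Cdkn2d stretch holds no CG dinucleotide.

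For contrast, the 250 bases before the second TSS of Cdkn1a are given (chr17:29230467-29230716, plus strand, an intron of the longest Cdkn1a transcript), which lay under no peak. Capitals mark CG dinucleotides, of which there were 19.
Cdkn1a promoter, second TSS: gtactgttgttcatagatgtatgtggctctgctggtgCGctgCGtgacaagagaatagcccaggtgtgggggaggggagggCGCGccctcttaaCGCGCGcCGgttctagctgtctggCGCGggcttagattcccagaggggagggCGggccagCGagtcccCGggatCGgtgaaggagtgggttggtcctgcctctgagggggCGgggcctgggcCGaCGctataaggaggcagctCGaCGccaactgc
Of the 70051 annotated TSS of protein-coding genes, 24.9% had at least as many CG dinucleotides in the same 250 bases, against a median of 8. The Cdkn1a array word was found, on either strand, in the 250 bases before 1 of these TSS (0.00143%).

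Within 5 kb of a TSS, H3K27me3 of WT CD71+Ter119-/lo pro-erythroblasts was called at Cdkn1a, Cdkn2a and Cdkn2b, 3 of the 7 genes, where 3.28% of all protein-coding genes had such a peak. In WT CD71+Ter119high erythroblasts it was called at 2, Cdkn1c and Cdkn2a (11.5% of all genes). In Mtf2-null cells it was called at 1 among CD71+Ter119-/lo cells, Cdkn2a (1.27%), and at 0 among CD71+Ter119high cells (1.63%). Mtf2 was called at 3 in CD71+Ter119-/lo cells, namely Cdkn1a, Cdkn2a and Cdkn2d (8.44%), and at 1 in CD71+Ter119high cells, Cdkn1a (1.51%). Cdkn1b and Cdkn2c had no peak of any list within 5 kb of a TSS. A WT peak without an Mtf2-null peak of the same fraction was found at 2 genes in CD71+Ter119-/lo cells, Cdkn1a and Cdkn2b (3.11% of all genes), and at 2 in CD71+Ter119high cells, Cdkn1c and Cdkn2a (11.4%). H3K27me3 together with Mtf2 was found at 2 in CD71+Ter119-/lo cells, Cdkn1a and Cdkn2a (0.809%), and at 0 in CD71+Ter119high cells (0.125%). Because the genes were chosen on these calls, the shares are given as background and nothing is read from the difference.

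Inside the genes, fewer peaks were called. H3K27me3 peaks overlapped Cdkn2a and Cdkn2b in WT CD71+Ter119-/lo cells (2 genes, background 5.01%) and Cdkn1c and Cdkn2a in WT CD71+Ter119high cells (2 genes, 11.5%). In Mtf2-null cells there were 0 in CD71+Ter119-/lo (2.37%) and 0 in CD71+Ter119high (4.22%). Mtf2 peaks overlapped 1 gene, Cdkn2a, in CD71+Ter119-/lo cells (14.8%) and 0 in CD71+Ter119high cells (4.38%). With 50 kb added on either side, the counts were 5 in WT CD71+Ter119-/lo cells (22.9%), 3 in Mtf2-null pro-erythroblasts (10.2%), 6 in WT CD71+Ter119high cells (31.3%) and 1 in Mtf2-null CD71+Ter119high cells (19.4%). For Mtf2 they were 5 in CD71+Ter119-/lo cells (58.8%) and 2 in CD71+Ter119high cells (19.0%). Cdkn2a and Cdkn2b are neighbours and share peaks at this distance.

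**Figure D1:**
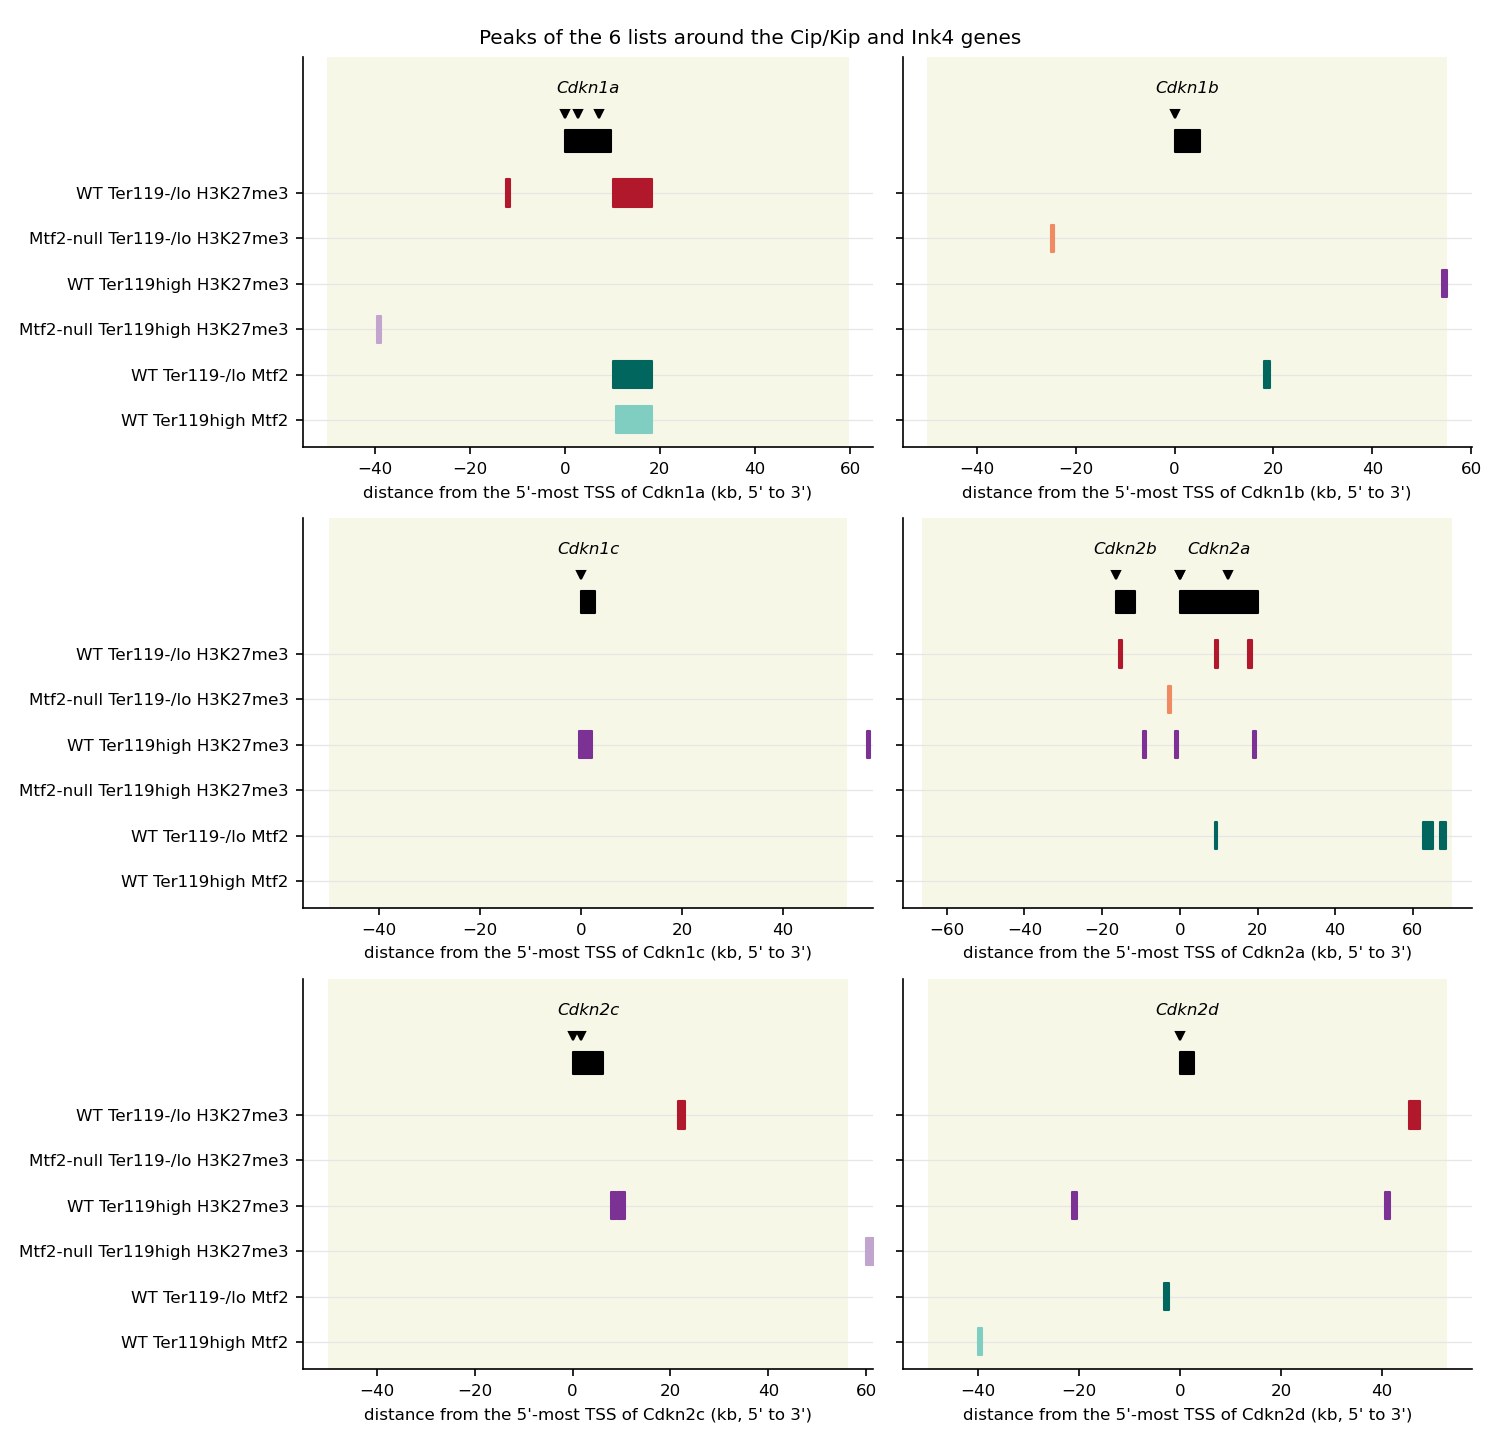
Peaks of the 6 lists (coloured boxes, 1 row per list) around each gene (black bar, TSS as triangles), with distance in kb from the gene's 5′-most TSS on the x axis and 50 kb on either side shaded; row names give the Ter119 level of the CD71+ fraction, and boxes under 0.7 kb are drawn at that width. The domain 3′ of Cdkn1a stands in the WT Ter119-/lo H3K27me3 row and in both Mtf2 rows, and only Cdkn1c has a peak over its TSS.

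Cdkn1a encodes p21, the Cip/Kip inhibitor that p53 induces. In WT CD71+Ter119-/lo cells, a single H3K27me3 domain of 8077 bp (chr17:29238121-29246197) began 0.454 kb beyond the annotated 3′ end of the gene. It held 480 tags (exact 95% Poisson interval 438 to 525, counting error only), with a score (−10 log10 of the peak's p) of 330, a fold enrichment over IgG of 12.6 and an FDR of 0%. In the Mtf2-null list of the same fraction, and in the H3K27me3 lists of WT and Mtf2-null CD71+Ter119high cells, no peak overlapped it. How many other peaks of its list also lacked such an overlap is not given, so the lack is not read as particular to this domain. The domain ranked first of 4992 peaks in its list by score, by length and by tags, and the next score was 221. It was chosen for its score, so these ranks are a description and nothing more is read from them. It was the only peak of at least 5 kb in that list. By tags per kb it ranked 26, and by fold enrichment 967.

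The domain counted as close to a TSS only through the most downstream of the 3 annotated Cdkn1a start sites. Its edge lay 2.97 kb from that TSS and its summit 6.13 kb from it. The gene body and the other two start sites carried no peak of any list. In the 1 kb around the 3 TSS, in the order of transcription, G+C was 47.3%, 58.5% and 54.1%, and the observed to expected ratio of CpG was 0.126, 0.619 and 0.533. Over all TSS the medians were 54.4% and 0.460. Of all TSS windows, 39.2% had at least 50% G+C and a ratio of at least 0.6, as the second Cdkn1a TSS did.

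Both Mtf2 lists had a peak over the same interval. In CD71+Ter119-/lo cells the Mtf2 peak was 8211 bp long (chr17:29237978-29246188), with 727 tags (675 to 782), a score of 453, a fold enrichment of 7.78 and an FDR of 0.07%. In CD71+Ter119high cells it was 7401 bp long (chr17:29238777-29246177), with 268 tags (237 to 302), a score of 263, a fold enrichment of 10.7 and an FDR of 100%. It had the highest score of the 5309 Mtf2 peaks of that fraction, and was also 1 of the 4 peaks there with an FDR of 100%. The CD71+Ter119-/lo Mtf2 peak ranked 1344 of 28918 by score. The H3K27me3 and Mtf2 peaks of CD71+Ter119-/lo cells were called against the same IgG library, and the Mtf2 peak of CD71+Ter119high cells against another. The 2 Mtf2 peaks covered 99.9% and 91.6% of the bases of the H3K27me3 domain. The H3K27me3 and Mtf2 summits of CD71+Ter119-/lo cells were 19 bp apart, and the Mtf2 summit of CD71+Ter119high cells lay 1119 bp from the H3K27me3 summit. Per kb and per 1000000 unique tags of the library, the density was 3.14 for H3K27me3, 3.05 for Mtf2 in CD71+Ter119-/lo cells and 2.31 for Mtf2 in CD71+Ter119high cells, where the medians of the lists were 1.42, 1.42 and 1.70.

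The interval coincided with a tandem array. Words of 12 bases that occur at least 3 times in the region formed, with gaps of at most 50 bp, a run of 8222 bp (chr17:29237965-29246186) that began 298 bp past the end of Cdkn1a. Shifted by 23 bases, the array matched itself at 67.8% of positions (the median over windows of 400 bases), against a median of 23.0% over all shifts from 2 to 200 bases, which corresponds to about 357 lengths of the 23-base unit. AGTTGTAGAACT occurred 232 times and its reverse complement 51 times. The array had 42.8% G+C, a CpG ratio of 0.0877 and 33 CG dinucleotides in its whole length. The H3K27me3 domain started 156 bp inside the array and ended 11 bp past it. The Mtf2 peaks started 13 and 812 bp inside it and ended 2 bp past it and 9 bp before its end. Among the 4992 H3K27me3 peaks of WT CD71+Ter119-/lo cells, 2939 were overlapped by an Mtf2 peak of that fraction. Of the 4992, 107 ended within 20 bp of the end of one, and 3 of those also ended within 20 bp of the end of an Mtf2 peak of CD71+Ter119high cells. The domain itself ended 9 and 20 bp from the ends of the 2 Mtf2 peaks. The limit of 20 bp equals the larger of these, so the domain is among the 3 by construction and the counts are a description.

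The array held few unique short words. Of the 25-base words in the H3K27me3 domain (25 is the tag size in the peak files), 5.02% occurred once in the genome. The median word had 23 copies, and 1.39% also occurred outside the peak. For the Mtf2 peak of CD71+Ter119-/lo cells the last share was 1.17%. For the shorter Mtf2 peak of CD71+Ter119high cells it was 58.4%. That peak started 812 bp inside the array, so places outside it include the rest of the same array. Of the 12-base words of the H3K27me3 domain, 96.6% occurred more than once within it, the second highest share of the list. Over the whole list the median share was 0%, and 135 of 4992 peaks (2.70%) had a share above 50%. Over the whole libraries, the peak caller counted 34.6% and 39.7% of the Mtf2 tags and between 78.4% and 85.4% of the H3K27me3 tags as unique. That count concerns duplicate tags at the same position. It does not give the share of reads that map to a single place in the genome. How far the array's sequence, the placing of its reads or the IgG background there took part in the 3 calls was not tested.

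**Figure D2:**
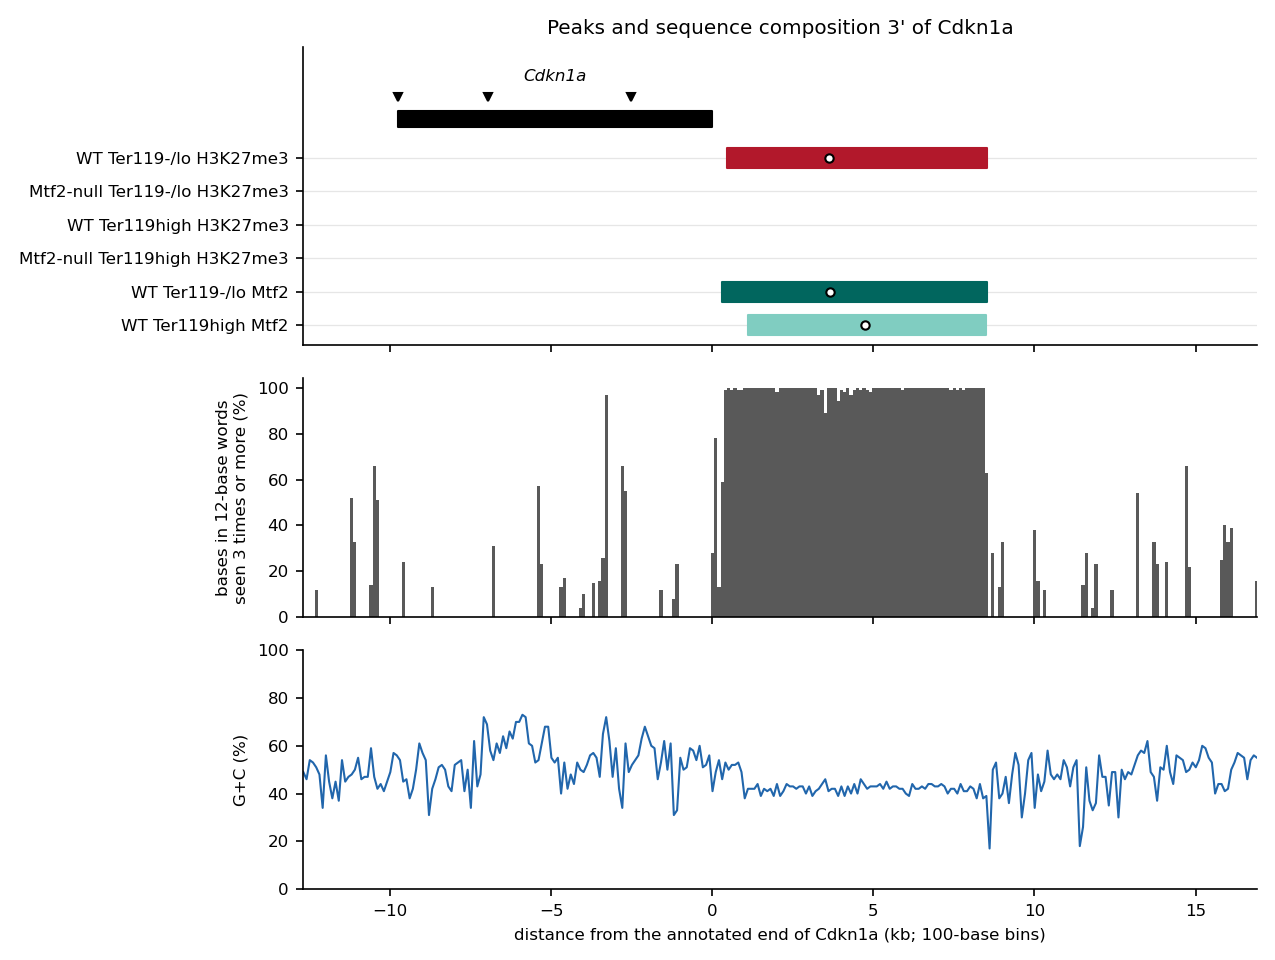
Top, peaks of the 6 lists at and beyond Cdkn1a (black bar, TSS as triangles), with summits as open circles; middle, percent of bases in 12-base words seen 3 times or more in the region, in bins of 100 bases; bottom, G+C percent in the same bins. The x axis is the distance in kb from the annotated end of the gene. The 3 peaks lie on the block of repeated words and stop within 11 bp of its end.

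Elsewhere within 50 kb of Cdkn1a there were 2 peaks. An H3K27me3 peak of WT CD71+Ter119-/lo cells with 16 tags (9.15 to 26.0) lay 11.8 kb upstream in an intron of the lincRNA Gm16197, and an H3K27me3 peak of Mtf2-null CD71+Ter119high cells with 48 tags (35.4 to 63.6) lay 38.7 kb upstream, nearest to Srsf3. Both were short, at 541 and 849 bp, and neither was overlapped by a peak of another list. The 5 genes over 200 kb from Cdkn1a with the most similar pattern, by the bases under peaks of each list in the gene and 50 kb on either side (Euclidean distance of log2 values over 6 lists, 1.91 for each), were Gm3402, Gm3404, Gm3409, Gm3415 and Gpr12. They share identical values because their windows hold the same peaks, with 2439 bp of H3K27me3 peaks in WT CD71+Ter119-/lo cells against 8618 bp at Cdkn1a.

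Cdkn1c encodes p57, an imprinted Cip/Kip inhibitor. Its single peak was one of H3K27me3 in WT CD71+Ter119high cells (chr7:150644742-150647407), 2666 bp long, which covered the TSS and most of the gene of 2701 bp. It held 143 tags (121 to 168), with a score of 86.4, a fold enrichment of 5.92, an FDR of 7.65% and rank 1620 of 4490 by score. The other 5 lists had no peak within 50 kb of the gene. The sequence under the peak was of the opposite kind to the Cdkn1a array: 69.5% G+C, a CpG ratio of 0.881, 2.71% repeated 12-base words, and 99.9% of its 25-base words found once in the genome. The summit lay in a coding exon, 1.04 kb inside the gene. The Mtf2-null library of this fraction, with no peak here, held 67169672 unique tags against 30054186 in WT. Its IgG library held 20646036 against 12345800. How these depths bear on the missing peak was not tested.

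Cdkn1b encodes p27, the Cip/Kip inhibitor that accumulates as erythroblasts mature. No list had a peak in the gene or within 5 kb of its TSS, whose 1 kb window had 63.5% G+C and a CpG ratio of 0.907. Of 3 peaks within 50 kb, an H3K27me3 peak of Mtf2-null CD71+Ter119-/lo cells (25 tags, FDR 100%) lay 24.4 kb upstream in an intron of Gpr19. An Mtf2 peak of CD71+Ter119-/lo cells (40 tags, 28.6 to 54.5) lay 13.0 kb downstream, and 41.0% of its 25-base words were single-copy. The remaining one, an H3K27me3 peak of WT CD71+Ter119high cells (29 tags), lay 49.1 kb downstream with Apold1 as the nearest gene, just inside the distance limit.

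Cdkn2a encodes p16Ink4a and, in another reading frame, p19Arf, which stabilises p53. The gene spans 20.2 kb and has 3 annotated TSS, of which the upstream pair lie close together. H3K27me3 of WT CD71+Ter119-/lo cells formed 2 small peaks inside it. The first (chr4:88930789-88931540, 752 bp) held 20 tags (12.2 to 30.9) and lay in an intron 2.69 kb upstream of the most downstream TSS. The second (chr4:88921948-88922936, 989 bp) held 24 tags (15.4 to 35.7) near the 3′ end of the gene and, at 5.16 kb from the nearest TSS, fell just outside the 5 kb window. Their FDR values were 10.0% and 7.76%. In WT CD71+Ter119high cells the peaks sat elsewhere. One of 30 tags (20.2 to 42.8; chr4:88941134-88941908) lay 0.577 kb upstream of the first TSS, in sequence with 60.6% G+C, and one of 23 tags (14.6 to 34.5) lay in an intron, 6.32 kb from a TSS. Their FDR values were 27.5% and 22.2%. A peak of 26 tags (17.0 to 38.1; chr4:88942860-88943554) in Mtf2-null pro-erythroblasts lay 2.30 kb upstream of the gene with an FDR of 100%. No H3K27me3 peak near Cdkn2a overlapped a peak of another H3K27me3 list. No share over all peaks is given for such overlaps, so this is a description only.

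The intronic peak of Cdkn2a was the only other place where H3K27me3 and Mtf2 met near a member. The Mtf2 peak of CD71+Ter119-/lo cells (chr4:88930964-88931612, 649 bp, 21 tags, 13.0 to 32.1, score 53.7, FDR 0.25%) shared 577 bp with the H3K27me3 peak, which is 88.9% of the shorter one. It ranked 25990 of 28918 Mtf2 peaks by score. Both peaks lay on the tandem repeat printed above. The repeat had a 23-base period, with 80.7% of positions matching at that shift in the H3K27me3 peak and 81.2% in the Mtf2 peak, and the word CTTCCTGGGATC occurred 28 and 26 times in the 2 peaks. Repeated 12-base words made up 88.9% and 91.8%. A period of 23 bases was found at Cdkn1a too, with a different word. The remaining 2 Mtf2 peaks within 50 kb of Cdkn2a lay 42.4 and 46.8 kb downstream, and their 25-base words had medians of 11285 and 3318 genome copies.

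Cdkn2b encodes p15Ink4b, the Ink4 inhibitor that TGF-beta induces, and lies upstream of Cdkn2a. Its single peak within 5 kb of a TSS was one of H3K27me3 in WT CD71+Ter119-/lo cells (chr4:88955713-88956272, 560 bp), in an intron 0.669 kb from the TSS. It held 16 tags (9.15 to 26.0), with a score of 62.9 and an FDR of 9.50%. All of its 25-base words (100%) were single-copy. In WT CD71+Ter119high cells the nearest peak lay 2.14 kb past the 3′ end, between Cdkn2b and Cdkn2a, with 28 tags (18.6 to 40.5). No Mtf2 peak lay in the gene, and the nearest was the one on the Cdkn2a repeat, 20.6 kb away.

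Cdkn2c encodes p18Ink4c. A pair of H3K27me3 peaks in WT CD71+Ter119high cells lay past its 3′ end, at gaps of 1.51 and 2.69 kb. The farther one (chr4:109329089-109330795, 1707 bp) held 77 tags (60.8 to 96.2) and had a score of 168 and an FDR of 3.03%, the one peak near a member in that list that passed a limit of 5%. Its summit lay in an exon of the lincRNA 9630013D21Rik and 8.10 kb from the nearest Cdkn2c TSS. The nearer one held 36 tags (25.2 to 49.8) with an FDR of 10.6%. In WT CD71+Ter119-/lo cells a peak of 38 tags lay 15.3 kb downstream, in an intron of Gm12811, with 15.7% single-copy words. Mtf2-null peaks and Mtf2 peaks first appeared at 53.7 and 56.2 kb, just beyond the limit.

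Cdkn2d encodes p19Ink4d. Its nearest peak was one of Mtf2 in CD71+Ter119-/lo cells (chr9:21097933-21098879, 947 bp), 2.28 kb upstream of the TSS, with 38 tags (26.9 to 52.2), a score of 113, a fold enrichment of 11.6 and an FDR of 0.04%. It lay on the tandem repeat printed above for this gene, with a period of 38 bases, 81.4% of positions matching at that shift, 20 copies of TGGCCACCTCAG and 79.7% repeated 12-base words. Of its 25-base words 22.0% were single-copy, and 0% also occurred outside the peak. No H3K27me3 peak overlapped it. Those within 50 kb lay in or near other genes: S1pr5 (56 tags in WT CD71+Ter119-/lo cells, 42.5 kb downstream, and 37 tags in WT CD71+Ter119high cells, 37.8 kb downstream) and Ap1m2 (32 tags in WT CD71+Ter119high cells, 20.4 kb upstream). An Mtf2 peak of CD71+Ter119high cells with 16 tags lay 39.3 kb upstream, nearest to Slc44a2.

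**Figure D3:**
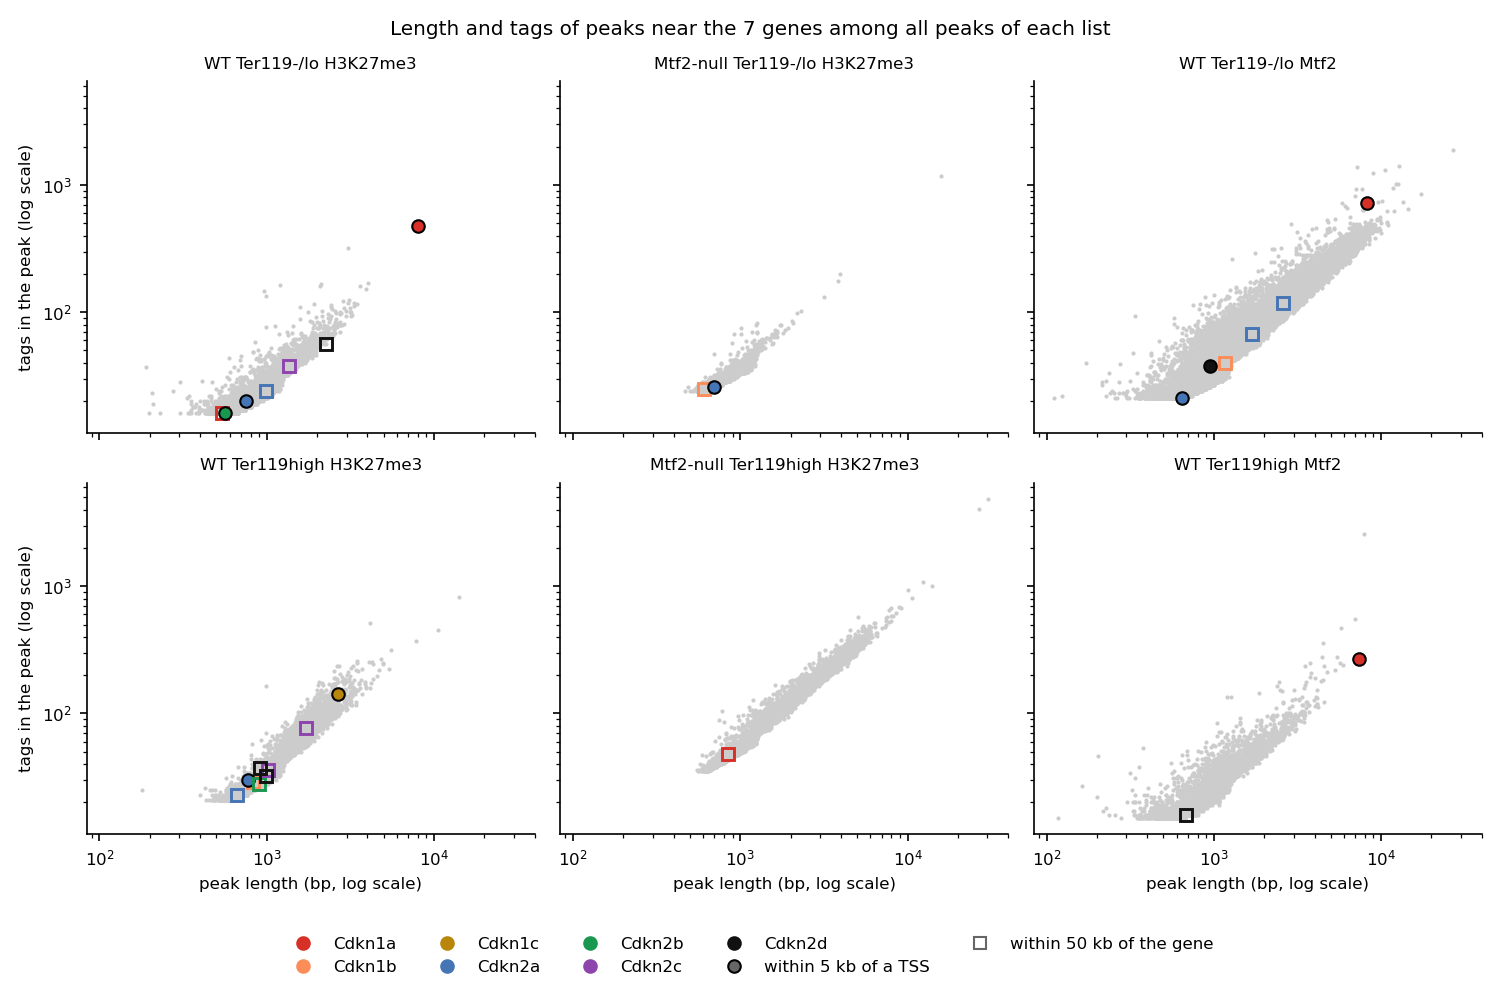
Peak length (bp) against tags in the peak, both on log axes, for all peaks of each list (grey) with the peaks near the 7 genes in colour, filled where within 5 kb of a TSS and open where within 50 kb of the gene. Panel names give the Ter119 level of the CD71+ fraction. The Cdkn1a domain stands alone at the upper right of the WT Ter119-/lo H3K27me3 panel with 8077 bp and 480 tags, and the 2 Mtf2 panels each hold the peak over the same interval.

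Over the 27 peaks, tag counts ran from 16 to 727 with a median of 36.0. A score of at least 100 was reached by 5, of which 3 were the Cdkn1a peaks, 1 the Mtf2 peak upstream of Cdkn2d and 1 the H3K27me3 peak 3′ of Cdkn2c. An FDR of 5% or less was reached by 9. These were all 6 Mtf2 peaks of CD71+Ter119-/lo cells, the Cdkn1a domain, the Cdkn2c peak and the Mtf2-null CD71+Ter119high peak upstream of Cdkn1a. Every peak of the CD71+Ter119-/lo Mtf2 list (largest FDR 0.31%) and of the Mtf2-null CD71+Ter119high list (1.16%) passed this limit. No peak of the CD71+Ter119high Mtf2 list (smallest FDR 6.94%) or of the Mtf2-null CD71+Ter119-/lo list (100%) could. In those lists the limit does not separate one peak from another. Overlap with a peak of another list was seen for 5 peaks, all on the repeats at Cdkn1a and Cdkn2a. Of the 7 WT CD71+Ter119-/lo H3K27me3 peaks among the 27, 2 lay under an Mtf2 peak of that fraction. In the whole list 2939 of 4992 did. For the other lists no share over all peaks is given, so nothing is read from where the overlaps fell.

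Repeated sequence made up most of 6 of the 10 peaks within 5 kb of a member TSS. All 4 Mtf2 peaks had over 50% repeated 12-base words, whereas over all Mtf2 peaks within 5 kb of a TSS of any protein-coding gene the share was 4.44% (105 of 2364). Of the 6 H3K27me3 peaks, 2 were over the limit, both of them in WT CD71+Ter119-/lo cells and both under an Mtf2 peak, against 1.19% (50 of 4208) of H3K27me3 peaks near any TSS. The 4 that were not (Cdkn1c, Cdkn2b and 2 at Cdkn2a) had between 0% and 2.71% repeated words. The measure was chosen after the sequences had been seen, the 3 Cdkn1a peaks share 1 array and the 2 Cdkn2a peaks share another, so these counts describe 3 repeats, and they are not independent peaks. When peaks over the limit are left out, no member has an Mtf2 peak within 5 kb of a TSS in either fraction, and H3K27me3 in WT CD71+Ter119-/lo cells remains at 1 member, Cdkn2b.

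**Figure D4:**
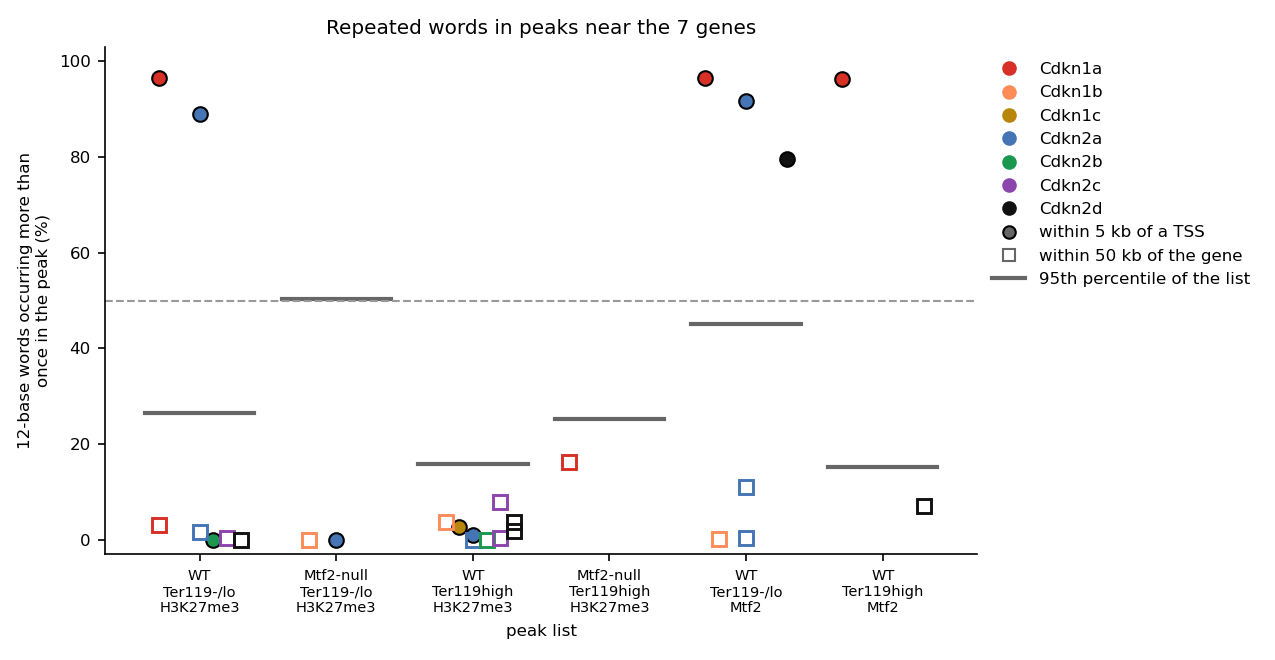
Percent of 12-base words that occur more than once in a peak, for the peaks near the 7 genes in each list, filled where within 5 kb of a TSS and open where within 50 kb. The dashed line is 50%, and the grey bars mark the 95th percentile of all peaks of the list. The filled points above the line are the 3 Cdkn1a peaks, the 2 overlapping Cdkn2a peaks and the Cdkn2d peak.

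Other genes of the cell cycle machinery and the p53 arm were counted the same way, within 5 kb of a TSS. In WT CD71+Ter119high cells 3 of 31 (Cdk4, Tfdp2 and Trp73) had an H3K27me3 peak, where 11.5% of all genes did, and in WT CD71+Ter119-/lo cells 2 (Rbl2 and Trp73), where 3.28% did. Mtf2 was called at 1 in CD71+Ter119-/lo cells, Rbl2 (8.44% of all genes), and at 0 in CD71+Ter119high cells (1.51%). None of the 9 D-, E-, A- and B-type cyclins had a peak of any list. Of 4 cyclin-dependent kinases, Cdk4, the partner that Ink4 proteins bind, had 2 H3K27me3 peaks in WT CD71+Ter119high cells, both nearer to a TSS of March9 than to that of Cdk4. The larger (chr10:126495787-126498305) held 214 tags with a score of 1105 and an FDR of 0%, and the other 28 tags with a score of 72.0. Of 13 pocket protein, E2F and E2F partner genes, Rbl2, which encodes the pocket protein p130, had an H3K27me3 peak (16 tags) under an Mtf2 peak (31 tags) in CD71+Ter119-/lo cells, and Tfdp2, an E2F partner, had an H3K27me3 peak of 23 tags in WT CD71+Ter119high cells. Of 5 genes of the p53 arm, Trp73, a relative of p53, had H3K27me3 peaks in WT cells of both fractions. The largest of these (chr4:153513415-153516084) held 138 tags with a score of 434 and its summit 0.063 kb from the TSS, in CD71+Ter119high cells. In the Mtf2-null lists 0 of these 31 genes had a peak, where 1.27% and 1.63% of all genes did.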

How the data were processed

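ChIP-seq peak lists of 6 libraries were analysed, 4 of H3K27me3 and 2 of Mtf2, each called by the authors with the IgG library from matching cells as control. WT H3K27me3 and Mtf2 of a fraction share an IgG library. Per the submitters' processing notes, reads were aligned with Bowtie2 2.2.3 to mm9 and peaks called with MACS 1.3.7. The file headers name alignments marked as masked and encBL, and what was masked is not given in the sources used here. The methods speak of replicates, but whether they were pooled is not given in the sources used here. The series design text names H3K4me3 once where the labels name H3K27me3, which was followed. The deposited tag counts are raw reads per peak, not scaled for depth. The score deposited for a peak is −10 log10 of its p as the authors' caller computed it, the deposited fold is a ratio of ChIP to local IgG, and the deposited FDR is a percent estimated by exchanging ChIP and IgG. The deposited summit is an offset in bases from the peak start.

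Coordinates are 1-based on NCBIM37, the assembly behind mm9, with TSS and genes from GENCODE M1 (protein-coding genes on autosomes, X and Y). Tags carry exact 95% Poisson intervals, which cover counting error only, since PCR copies are not independent molecules. Repeated words of 12 bases, words of 25 bases counted on both strands of the genome, and shift identity were read from the assembly. No chance test was run. Some marker genes and promoter sequences are not reported here. Alternatives tried were limits on the score (100 or more) and on the FDR (5% or less), other windows and overlap rules, and, added after the data were seen, the 5′-most TSS only, longer words, and peaks with over 50% repeated words left out. The steps for peak overlap, merged length of peaks, share of repeated words and repeat period were tested on simulated data. Named genes are the 7 members, genes holding or nearest to their peaks, cell cycle and cell type genes of fixed lists with a peak, and the 5 genes nearest to Cdkn1a in pattern. The members and lists were chosen with earlier results of these data known. Tools were scipy 1.17.1, pandas 2.3.3 and pysam 0.24.0 under Python 3.11.15, with numpy 2.4.6 and, for plots, matplotlib 3.10.9.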

Additional observations from a re-analysis of the deposited data

How the results depend on the processing

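Counts below follow the order WT CD71+Ter119-/lo, Mtf2-null CD71+Ter119-/lo, WT CD71+Ter119high and Mtf2-null CD71+Ter119high H3K27me3, then CD71+Ter119-/lo and CD71+Ter119high Mtf2. Of 140 values under alternatives, 76 stayed within 1.5 times the reported one (or, for the covered share of the Cdkn1a domain, within its Wilson interval) and 64 did not. Near a TSS (within 5 kb), members with a peak numbered 3, 1, 2, 0, 3 and 1. With a score of at least 100 the first 3 became 1, 0 and 0, and Mtf2 in CD71+Ter119-/lo cells became 2. With an FDR of at most 5% the first 3 became the same. Mtf2 in CD71+Ter119high cells then became 0, as no peak of that list had an FDR below 6.94%. Within 1 kb or 2 kb they became 1, 0, 2, 0, 0 and 0, and within 10 kb WT CD71+Ter119high rose to 4. With the summit or at least 50% of the peak in the window, WT CD71+Ter119-/lo H3K27me3 became 2. Under the same rules Mtf2 became 2 in CD71+Ter119-/lo cells and 0 in CD71+Ter119high cells. Cdkn1a was the gene lost from each of these lists. With the 5′-most TSS only, WT CD71+Ter119-/lo H3K27me3 became 1 and Mtf2 became 1 and 0, and with repeat peaks left out 1, 0 and 0. TSS of protein-coding transcripts changed no count. For peaks in the gene body, both limits took both WT lists from 2 to 0, the score limit took Mtf2 in CD71+Ter119-/lo cells from 1 to 0, and the extended gene raised Mtf2 in CD71+Ter119-/lo cells to 3 and Mtf2-null CD71+Ter119-/lo to 1. Peaks within 50 kb numbered 7, 2, 9, 1, 6 and 2. Within 10 kb, 4, 1, 0, 3 and 1 remained in the lists other than WT CD71+Ter119high. Within 25 kb the last H3K27me3 list fell to 0 and the last Mtf2 list to 1. Within 100 kb the last 3 lists had 2, 12 and 4. The score limit left 1, 0, 1, 0, 2 and 1, and the FDR limit 1, 0 and 1 in the first 3 and 0 in the last. With repeat peaks left out, 3 and 1 Mtf2 peaks remained. Members with a peak in WT cells and none in Mtf2-null cells were counted again. In CD71+Ter119-/lo cells they went from 2 to 1 under both limits, within 1 kb and without repeat peaks. In CD71+Ter119high cells they went from 2 to 0 under both limits, to 4 within 10 kb and to 6 with 50 kb on either side. In this section no share over all genes is given beside the counts, so nothing is read from their size. The Cdkn1a domain was under an Mtf2 peak of CD71+Ter119high cells for 0% of its bases when the FDR limit was set, and ranked 26 by tags per kb and 967 by fold. The number of member peaks with over 50% repeated words, 6, was the same with words of 16 and 20 bases. Without replicate libraries a peak missing from 1 list cannot be told apart from one just under the cutoff. No paired analysis was possible because each condition has 1 library.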
